A study of Mus musculus with 8 samples.

Results

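The genes examined encode proteins of the sarcomeric Z-disc and the long proteins that span the sarcomere of heart muscle. They are Myoz2, Actn2, Ldb3, Csrp3, Tcap, Nebl, Ttn, Myom1 and Flnc, 9 of the 20701 gene symbols in the count table, and all 9 were among the 13769 genes tested. They were chosen by name, with earlier results of these data known, and each was represented by its listed transcript with most reads on average over the 8 libraries. That mean count thus chose the transcript, so the levels given for the genes are a description. Titin spans from the Z-disc to the M-band, and myomesin, the product of Myom1, belongs to the M-band and not to the Z-disc.

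PolyA RNA was sequenced from the right ventricle and outflow tract (OFT/RV) of single C57BL/6 mouse embryos at E10.5. The control group (CTRL) held 4 wild type embryos, and the other group (Isl1_hypo) held 4 embryos with the genotype Isl1 hypomorph, with f;neo alleles at both copies of Isl1. Isl1 is a LIM-homeodomain transcription factor of the second heart field, the progenitor population that builds the OFT and RV. The hypomorphic alleles leave part of the Isl1 RNA in place, and the dissected piece holds several cell types. For Isl1 itself, CTRL replicates 1 to 4 held 29.6, 61.5, 46.2 and 51.3 CPM (counts scaled to library size), and Isl1_hypo replicates 1 to 4 held 12.7, 6.86, 7.71 and 11.4 CPM, 20.5% of the CTRL mean. The libraries held 29748458 to 46678973 counts in CTRL and 18422245 to 33050298 in Isl1_hypo. All libraries came from separate embryos, so the spread within a group includes differences between embryos.

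In striated muscle the sarcomere is the repeating contractile unit, bounded by Z-discs in which actin filaments of neighbouring units are anchored and crosslinked by alpha-actinin. Titin is anchored in the Z-disc and reaches the M-band, where myomesin links the thick filaments, so that a single molecule spans from the border to the middle of the sarcomere. Several Z-disc proteins also bind signalling molecules and respond to stretch, and mutations in many of these genes cause cardiomyopathy in humans.

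The 9 genes did not all go one way. In Isl1_hypo, Myoz2 was 2.27-fold higher, and it was the single gene among the 9 with an adjusted p under 0.05 (edgeR quasi-likelihood test, Benjamini-Hochberg over all genes tested). Over all 13769 genes 0.269% passed, 0.145% higher and 0.123% lower. Ttn stood at 53.6% and Flnc at 75.4% of the CTRL mean without passing that threshold, and Csrp3 was higher, also without passing it. At an unadjusted p under 0.05 there were 2 genes higher (Myoz2 and Csrp3) and 2 lower (Ttn and Flnc), against 11.9% of all genes in either direction. The log2 fold change was below 0 for 5 of the 9 genes, against 49.1% of all genes, with a median of −0.09 beside 0.01 over all genes tested. The groups did not overlap in CPM for 3 genes (Myoz2, Ttn and Flnc), against 8.5% of all genes. For Actn2, Ldb3 and Tcap the log2 fold change was smaller than its own standard error. Every library held between 1008 and 229446 counts for each of the 9 genes, so counting error was small beside the differences between embryos.

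**Figure D1:**
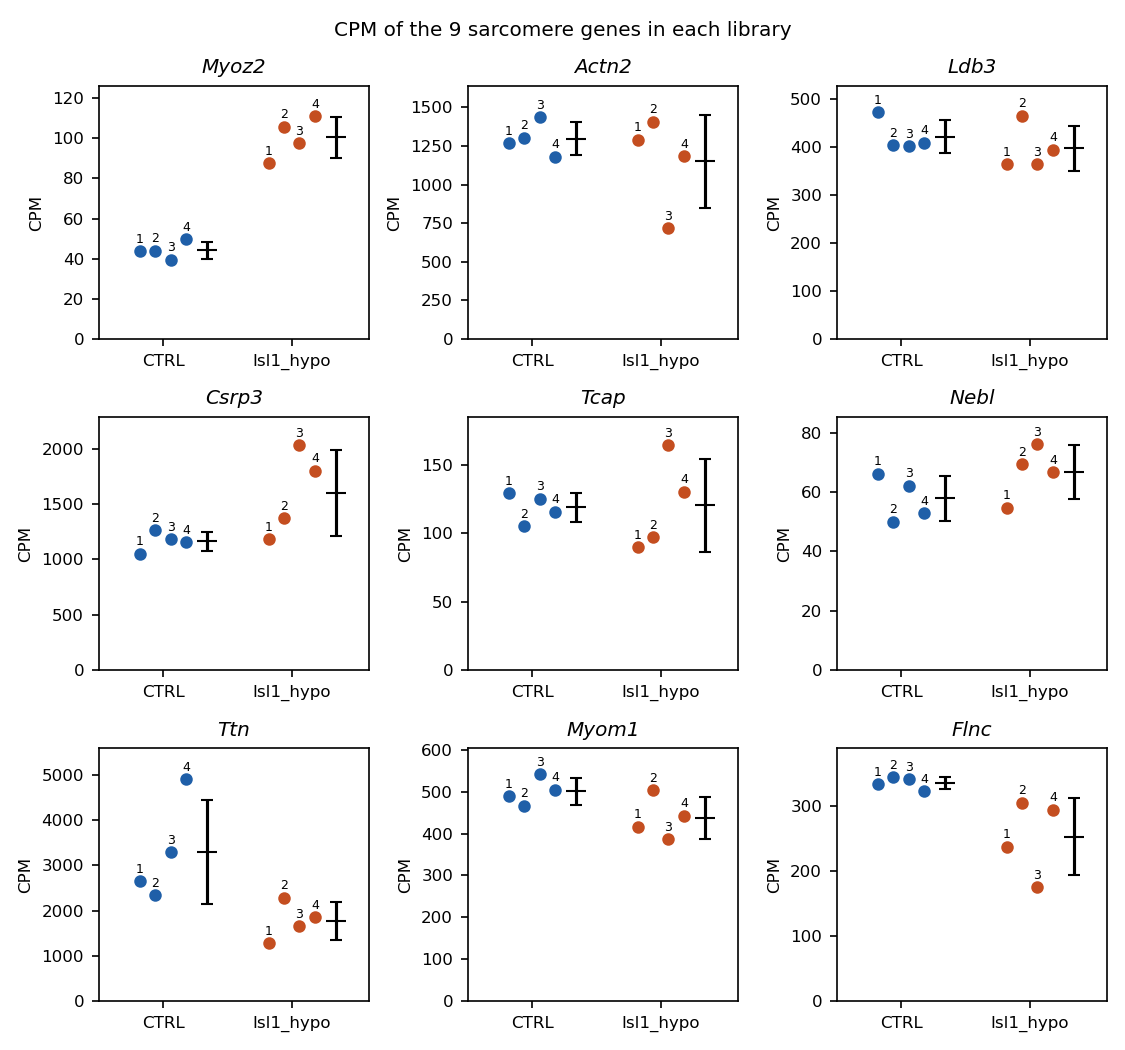
CPM (y axis, linear from 0) of each of the 9 genes in the 4 CTRL (blue) and 4 Isl1_hypo (orange) libraries, with replicate numbers above the points and the mean and SD of each group as a black bar. The groups are separate for Myoz2 (39.4 to 49.7 against 87.4 to 111), Ttn and Flnc, and Isl1_hypo replicate 3 is the lowest point for Actn2, Ldb3, Myom1 and Flnc and the highest for Csrp3, Tcap and Nebl.

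To show the sequence next to the genes with an unadjusted p under 0.05, the 250 bases upstream of the farthest upstream start listed for each were taken from RefSeq (GRCm38.p6) and are given 5′ to 3′ on the strand of the gene. Capitals mark matches to the MEF2 motif of muscle genes in Myoz2 and Ttn, and to TAAT, the core of many homeodomain sites, read as ATTA, in Csrp3 and Flnc.
Myoz2 (chr3:123034988-123035237, minus strand): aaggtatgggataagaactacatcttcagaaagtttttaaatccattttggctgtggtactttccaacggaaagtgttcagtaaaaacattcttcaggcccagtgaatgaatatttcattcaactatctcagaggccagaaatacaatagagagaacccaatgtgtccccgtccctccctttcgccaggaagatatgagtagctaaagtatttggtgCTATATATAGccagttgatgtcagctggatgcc
Csrp3 (chr7:48848052-48848301, minus strand): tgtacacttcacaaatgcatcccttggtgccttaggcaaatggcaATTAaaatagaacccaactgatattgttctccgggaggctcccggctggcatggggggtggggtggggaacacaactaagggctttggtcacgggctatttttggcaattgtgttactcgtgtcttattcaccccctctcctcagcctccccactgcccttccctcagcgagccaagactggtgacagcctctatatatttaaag
Ttn (chr2:76982548-76982797, minus strand): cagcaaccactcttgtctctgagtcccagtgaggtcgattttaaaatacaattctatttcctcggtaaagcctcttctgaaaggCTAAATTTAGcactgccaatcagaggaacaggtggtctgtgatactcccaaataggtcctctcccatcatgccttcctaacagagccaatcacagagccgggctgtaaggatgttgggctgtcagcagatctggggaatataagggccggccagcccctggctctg
Flnc (chr6:29432903-29433152, plus strand): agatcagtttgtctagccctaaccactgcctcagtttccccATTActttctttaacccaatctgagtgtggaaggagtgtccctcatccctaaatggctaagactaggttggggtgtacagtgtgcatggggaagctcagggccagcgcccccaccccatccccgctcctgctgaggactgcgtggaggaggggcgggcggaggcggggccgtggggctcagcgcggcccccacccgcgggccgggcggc
The MEF2 match of Myoz2 ended 24 bases before the start and contains the letters TATATA, as a TATA box there would, and that of Ttn ended 157 bases before the start. Upstream sequence was at hand for 8 of the 9 genes, Tcap being the gene without an entry. Both strands were searched for MEF2, for the CArG box bound by serum response factor, for AGATAA, which GATA factors bind, and for TAAT. MEF2 matched in 2 of the 8 sequences (Myoz2 and Ttn) and in 2.92% of all 32851 promoters of the same length. CArG matched in 2 (Ldb3 and Myom1) and in 1.47% of all promoters. AGATAA matched in 1 (Myom1) and in 9.99% of all. TAAT matched in 5 (Actn2, Ldb3, Csrp3, Myom1 and Flnc) and in 54.9% of all. The matches are letters in a window and say nothing of binding. Myoz2, which was higher in Isl1_hypo, and Ttn, which was lower, thus both hold a MEF2 match.

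Myoz2 encodes calsarcin-1 (myozenin-2), a small Z-disc protein that binds alpha-actinin and the phosphatase calcineurin. The gene lies at 122709124 to 122737908 on chromosome 3 of mm9, on the minus strand, and 1 transcript of 1145 bases (NM_021503) was listed. CTRL replicates 1 to 4 held 43.6, 44.0, 39.4 and 49.7 CPM, and Isl1_hypo replicates 1 to 4 held 87.4, 106, 97.4 and 111 CPM. All 4 Isl1_hypo embryos lay above all 4 CTRL embryos, and the embryos of each group lay close together. The mean rose from 44.2 ± 4.20 to 100.4 ± 10.3 CPM (SD, n = 4), which is 1.18 on the log2 scale (SE 0.117), at an adjusted p of 0.00377 by edgeR. Its unadjusted p was the lowest of all 13769 genes. When every listed transcript was tested, Myoz2 held the single call among the 19 transcripts of the 9 genes (adjusted p 0.00494, edgeR), against 0.276% of all transcripts. With 1 transcript listed, that call rests on the same counts and is not separate support. Isl1_hypo replicate 3, which stands apart for many genes, differed from the mean of the other Isl1_hypo libraries by −0.05 on the log2 scale for Myoz2.

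Of 15 cardiomyocyte markers, 8 had a log2 fold change above and 7 below 0, with a median of 0.00. With edgeR 1 had an adjusted p under 0.05 (3 with DESeq2, 1 with limma-voom), and 2 were higher and 2 lower at an unadjusted p under 0.05. The called gene was Nppa, which encodes a cardiac natriuretic peptide, at 313 ± 59.5 CPM in CTRL and 686 ± 133 in Isl1_hypo (log2 fold change 1.13, adjusted p 0.0303, edgeR). The others at that unadjusted level were Pln, a regulator of the calcium pump, at 0.45, and the myosin heavy chain genes Myh7 and Myh6 at −0.49 and −0.31 on the log2 scale (adjusted p 0.198, 0.165 and 0.391, edgeR). The summed level of the 15 markers was 51012 to 62599.8 CPM in CTRL and 55214 to 66622 in Isl1_hypo, and the ranges overlapped. In pieces of whole tissue, fewer muscle cells and less RNA of a gene per cell cannot be told apart. When libraries were scaled to these markers, the log2 fold change of Myoz2 was 1.14 and that of Ttn −0.93.

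Actn2 encodes alpha-actinin 2, the crosslinker of actin filaments in the Z-disc (chromosome 13, 12361693 to 12433027, minus strand, mm9). It stood at 1269.6, 1304, 1439 and 1181 CPM in CTRL and at 1290.4, 1408, 716 and 1186 CPM in Isl1_hypo. Isl1_hypo replicates 1, 2 and 4 lay within the CTRL range, and replicate 3 lay 0.85 below their mean on the log2 scale. The means were 1298 ± 107 and 1150.0 ± 303 CPM (SD, n = 4), and the log2 fold change was −0.18 (SE 0.178, adjusted p 0.723 by edgeR). Without Isl1_hypo replicate 3 the log2 fold change was −0.0044, without replicate 2 it was −0.29, and with limma-voom it was −0.051.

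Ldb3 encodes Cypher (ZASP), a PDZ and LIM domain protein that binds alpha-actinin (chromosome 14, 35339885 to 35401867, minus strand, mm9). Its longest listed transcript stood at 473, 404, 401 and 409 CPM in CTRL and at 365, 465, 364 and 394 CPM in Isl1_hypo. The groups overlapped, with CTRL replicate 1 and Isl1_hypo replicate 2 high and the other 6 libraries between 364 and 409 CPM. The log2 fold change was −0.09 (SE 0.110, adjusted p 0.786, edgeR), and it was −0.03 without CTRL replicate 1 and −0.18 without Isl1_hypo replicate 2. Its sign turned with the length trends removed and without both libraries at their ends. Of the 7 listed transcripts, the 2 short ones of 1493 and 1612 bases had log2 fold changes of −0.23 and −0.22, and the 5 long ones of 4720 to 5024 bases had values of −0.05 to −0.08. Counts of the 1612 base transcript came to 50.02 ± 4.60% of those of the longest in CTRL and to 45.0 ± 5.68% in Isl1_hypo (SD, n = 4), a difference that did not pass an exact 2-sided permutation test (p = 0.2, or 0.6 after Benjamini-Hochberg adjustment over the 3 genes examined). The smallest p that this test can give for 4 against 4 is 0.0286.

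Csrp3 encodes muscle LIM protein, which is found at the Z-disc and in the nucleus (chromosome 7, 56085768 to 56103400, minus strand, mm9). Its level was 1051, 1262, 1183 and 1152 CPM in CTRL and 1184, 1370.4, 2029 and 1802 CPM in Isl1_hypo. Isl1_hypo replicates 2, 3 and 4 lay above every CTRL library and replicate 1 lay among them. The means were 1162 ± 87.3 and 1596 ± 387 CPM (SD, n = 4), and the log2 fold change was 0.46 (SE 0.158), which did not pass the threshold (unadjusted p 0.0140, adjusted p 0.302, edgeR). Without Isl1_hypo replicate 3, the highest library, the log2 fold change was 0.32. It was 0.27 with limma-voom (adjusted p 0.363) and 0.28 when CTRL replicate 1 was left out as well (edgeR, adjusted p 0.473). Both listed transcripts, of 889 and 911 bases, gave nearly the same log2 fold change (0.47 and 0.46). Transcripts of the same gene share reads, so this is not a separate result.

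Tcap encodes telethonin, which caps the end of titin in the Z-disc (chromosome 11, 98245125 to 98246267, plus strand, mm9). It stood at 129, 105, 125 and 116 CPM in CTRL and at 90.1, 97.5, 165 and 131 CPM in Isl1_hypo. The Isl1_hypo libraries lay on both sides of the CTRL range, replicates 1 and 2 below it and replicates 3 and 4 above it. The means of 119 ± 10.7 and 121 ± 34.1 CPM (SD, n = 4) differed by 0.02 on the log2 scale (SE 0.174, adjusted p 0.972, edgeR), and without Isl1_hypo replicate 3 by −0.16. The direction for Tcap thus turned on single libraries.

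Nebl encodes the nebulin relatives of heart Z-discs and of focal adhesions, and which of these the single listed transcript of 2971 bases codes for was not determined (chromosome 2, 17265536 to 17653091, minus strand, mm9). It stood at 66.2, 50.05, 62.2 and 52.9 CPM in CTRL and at 54.7, 69.3, 76.2 and 66.7 CPM in Isl1_hypo. The groups overlapped, with replicates 2, 3 and 4 of Isl1_hypo above every CTRL library and replicate 1 below 2 of them. The log2 fold change was 0.21 (SE 0.136, adjusted p 0.567, edgeR), and without Isl1_hypo replicate 3, the highest library, it was 0.14.

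Ttn encodes titin, the giant elastic protein of the sarcomere (chromosome 2, 76542037 to 76820604, minus strand, mm9). Its level was 2650.4, 2340.5, 3293 and 4903 CPM in CTRL and 1281, 2281, 1656 and 1855 CPM in Isl1_hypo. The groups did not overlap, but CTRL replicate 2 and Isl1_hypo replicate 2 lay close together, and CTRL replicate 4 lay far above the other CTRL libraries. The means were 3297 ± 1142 and 1768 ± 416 CPM (SD, n = 4), and the log2 fold change was −0.90 (SE 0.231, unadjusted p 0.00235, adjusted p 0.173, edgeR). DESeq2 gave the same log2 fold change with an adjusted p of 0.0055, and without CTRL replicate 4 the edgeR value was −0.64. Without that library the CTRL mean was 2761 ± 486 CPM (SD, n = 3).

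Ttn accounted for 44.6% of the summed CPM of the 9 genes in CTRL and for 29.7% in Isl1_hypo. The sum of the 9 was 7235 ± 1084 CPM in CTRL (6319.9 to 8691) and 5889 ± 706 CPM in Isl1_hypo (5007 to 6605), and the ranges overlapped. Its 2 listed transcripts, of 81737 and 101359 bases, share reads and gave log2 fold changes of −0.88 and −0.89. Counts of the shorter came to 83.9 ± 0.549% of those of the longer in CTRL and to 84.5 ± 3.35% in Isl1_hypo (SD, n = 4; exact 2-sided permutation p = 0.743). The Isl1_hypo libraries spread more widely in this share, from 79.8% in replicate 3 to 87.7% in replicate 1. Exons of Ttn overlap those of Gm13938 on the other strand in the mm9 annotation, and since counting ignored strand, reads of the overlap could come from either. No exon of the other 8 genes overlaps that of another annotated gene.

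Ttn is the longest transcript tested, and libraries differed in how their values moved with length. The slope of log2 CPM on log2 length, taken against the mean of all libraries, was 0.119 in CTRL replicate 1, −0.108 in Isl1_hypo replicate 3 and between −0.0282 and 0.0314 in the other 6. Among 613 tested genes over 8000 bases, which include Ttn and Flnc, 69.0% had a log2 fold change below 0, with a median of −0.14. Among 903 genes of up to 1000 bases, which include Csrp3 and Tcap, the share was 41.1% and the median 0.05. Of the 613 long genes, 21 including Ttn (3.43%) had a log2 fold change at or below that of Ttn.

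The next longest genes were Syne1, Dst and Macf1, which encode large proteins of the nuclear envelope and the cytoskeleton. Their log2 fold changes were −0.76 for Syne1 (28492 bases, adjusted p 0.170), −1.03 for Dst (24166 bases, 0.0359) and −0.45 for Macf1 (23395 bases, 0.299, all edgeR). When CTRL replicate 1 and Isl1_hypo replicate 3 were both left out, 60.9% of genes over 8000 bases and 60.6% of genes up to 1000 bases were lower, and Ttn stood at −0.96 (adjusted p 0.181). With a linear length trend removed from each library, fitted without the 9 genes, Ttn stood at −0.59 (adjusted p 0.448). A smooth (loess) trend turned it to 0.26. At the length of Ttn that curve differed by −1.13 between Isl1_hypo and CTRL, beyond the −0.90 of Ttn itself. Ttn is far longer than any other gene, so no other gene lies near that part of the curve. A curve fitted without Ttn does not reach its length, so Ttn was given the value of that curve at 28492 bases, the next longest. This gave −0.34 (adjusted p 0.505, edgeR). The linear trend, the curve without Ttn and the fit without both libraries were chosen after seeing the data. The part of length in the value of Ttn was not tested beyond these settings.

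**Figure D2:**
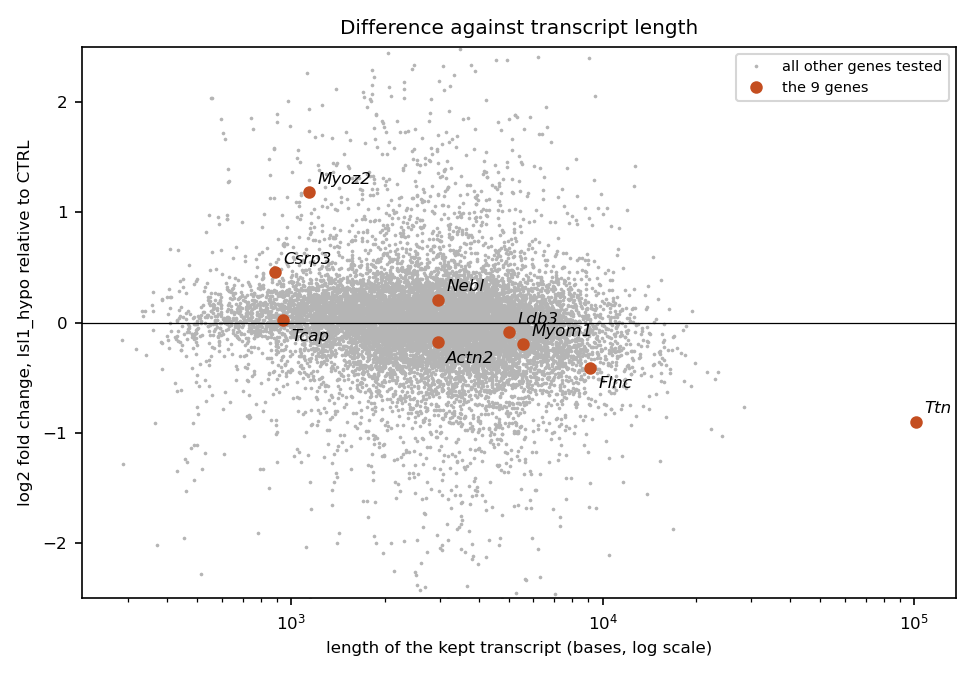
Log2 fold change of Isl1_hypo relative to CTRL (y axis) against the length of the kept transcript in bases (x axis, log scale) for all genes tested (grey) and the 9 genes (orange), with 43 genes outside the y axis limits of 2.5 not drawn. Csrp3, Tcap and Myoz2 are among the short transcripts and Ttn, at 101359 bases and −0.90, lies apart from all others on the x axis.

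Myom1 encodes myomesin, which crosslinks thick filaments in the M-band (chromosome 17, 71368861 to 71476196, plus strand, mm9). It stood at 489, 466, 541 and 505 CPM in CTRL and at 416, 503, 387 and 442 CPM in Isl1_hypo. Isl1_hypo replicates 1, 3 and 4 lay below every CTRL library and replicate 2 lay among them. The means were 500.4 ± 31.6 and 437 ± 49.4 CPM (SD, n = 4), and the log2 fold change was −0.20 (SE 0.106, adjusted p 0.497, edgeR). With the linear length trend removed it was −0.10, and with either loess trend removed −0.097. The 2 transcripts, of 5280 and 5573 bases, share reads, and both gave −0.19 when all transcripts were tested. The ratio of their counts was 94.9 ± 0.283% in CTRL and 95.3 ± 0.807% in Isl1_hypo (SD, n = 4; exact 2-sided permutation p = 0.629).

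Flnc encodes filamin C, an actin crosslinker of the Z-disc periphery and of membrane attachments (chromosome 6, 29383153 to 29411888, plus strand, mm9). Its level was 333, 344, 341 and 322 CPM in CTRL and 237, 305, 175 and 294 CPM in Isl1_hypo. All Isl1_hypo libraries lay below all CTRL libraries, and replicate 3 was the lowest of them. The means were 335 ± 9.85 and 253 ± 59.6 CPM (SD, n = 4), and the log2 fold change was −0.41 (SE 0.154), which did not pass the threshold (unadjusted p 0.0225, adjusted p 0.326, edgeR). Without Isl1_hypo replicate 3 the log2 fold change was −0.27, and with either loess length trend removed it was −0.27 as well. Both transcripts, of 8818 and 9116 bases, share reads and gave −0.40.

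**Figure D3:**
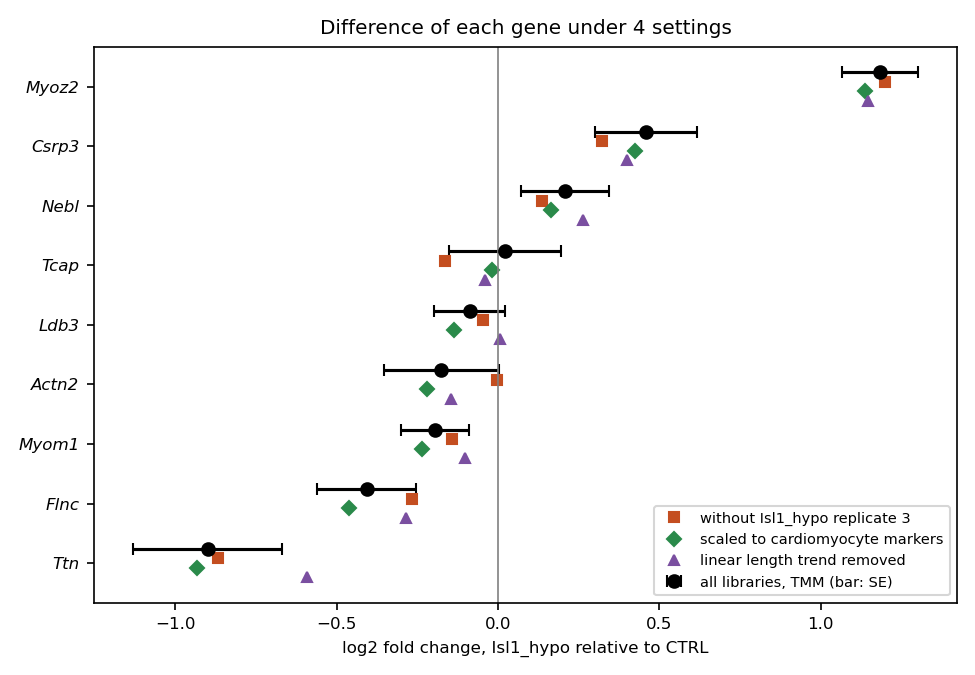
Log2 fold change of Isl1_hypo relative to CTRL (x axis) for each of the 9 genes from all 8 libraries (black, bar 1 SE), without Isl1_hypo replicate 3 (orange squares), scaled to cardiomyocyte markers (green diamonds) and with a linear length trend removed (purple triangles). Myoz2 lies between 1.14 and 1.198 under all 4 settings, Ttn moves from −0.90 to −0.59 with the length trend removed, and Tcap takes either sign.

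Isl1_hypo replicate 3 lay at an end of the range for 7 of the 9 genes. On the first principal component it lay at 72.0, where the other 7 libraries ranged from −17.7 to 3.97. It was the highest of the 8 libraries for Csrp3, Tcap and Nebl and the lowest for Actn2, Ldb3, Myom1 and Flnc. Against the mean of the other Isl1_hypo libraries it differed on the log2 scale by 0.65 for Tcap, 0.50 for Csrp3, −0.66 for Flnc and −0.85 for Actn2, and by −0.09 for Ttn. The coefficient of variation in CPM was larger in Isl1_hypo than in CTRL for 8 of the 9 genes, Ttn being the exception (23.5% against 34.6%), and for 7 of the 9 without that library. It ranged from 2.94% (Flnc) to 34.6% (Ttn) in CTRL.

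To order the 9 genes by level, CPM was divided by transcript length in kilobases. In CTRL, Csrp3 was the highest at 1307 ± 98.2 CPM per kilobase, followed by Actn2 at 438 ± 36.1 and Tcap at 126 ± 11.3 (SD, n = 4). Myom1 (89.8 ± 5.67 CPM per kilobase) and Ldb3 (83.9 ± 6.83) came next, with ranges that overlapped. Below them came Myoz2 (38.6 ± 3.67), Flnc (36.7 ± 1.08) and Ttn (32.5 ± 11.3 CPM per kilobase), where the range of Myoz2 overlapped that of Flnc and the range of Flnc that of Ttn. Nebl was the lowest at 19.5 ± 2.56, and its range did not overlap that of Ttn. On this scale Ttn, the gene with the most reads of the 9, was thus among the lowest. In Isl1_hypo the first 3 kept their order at 1796 ± 436, 388 ± 102 and 128 ± 36.1 CPM per kilobase. Myoz2 followed there at 87.7 ± 8.98, ahead of Ldb3 (79.0 ± 9.46) and Myom1 (78.4 ± 8.87), and Ttn was last at 17.4 ± 4.11 CPM per kilobase. Within Isl1_hypo the range of Myoz2 overlapped those of Tcap, Ldb3 and Myom1, and that of Nebl overlapped those of Flnc and Ttn, so the order of these neighbours did not exceed the spread between embryos.

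**Figure D4:**
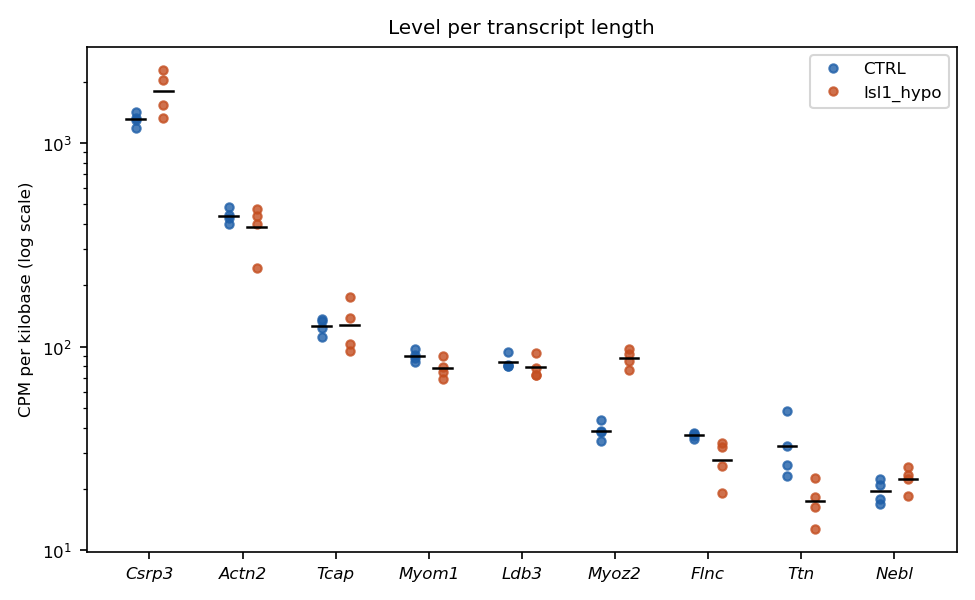
Level of each gene in CPM per kilobase of transcript (y axis, log scale) in the 4 CTRL (blue) and 4 Isl1_hypo (orange) libraries, with a line at each group mean and genes ordered by the CTRL mean. Myoz2 lies at a mean of 38.6 in CTRL and 87.7 in Isl1_hypo, the latter overlapping Ldb3 and Myom1, and the means of Ttn and Nebl exchange the last places with overlapping ranges in Isl1_hypo.

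Genes of the same structures that are not among the 9 were described as lists. Of 37 other Z-disc genes, 36 were tested, and 0 had an adjusted p under 0.05 with edgeR (5 with DESeq2, 3 with limma-voom). At an unadjusted p under 0.05 edgeR gave 4 higher and 8 lower, and the median log2 fold change was −0.08. Their summed level was 10867 to 11592 CPM in CTRL and 9823 to 11121 in Isl1_hypo, and the ranges overlapped. The 3 with the lowest p were Smpx, a small muscle protein of the costamere, at 417 ± 36.9 and 639 ± 87.1 CPM (log2 fold change 0.62, adjusted p 0.0619), Synpo2, an actin-binding Z-disc protein, at 128 ± 9.0 and 81.4 ± 14.5 CPM (−0.65, adjusted p 0.0688), and Klhl41, a Kelch protein of striated muscle, at 24.9 ± 1.89 and 43.3 ± 9.81 CPM (0.80, adjusted p 0.0735). In each of these 3 genes, picked by p, the groups did not overlap, as for 9 of the 36 tested and 8.5% of all genes.

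Relatives of the 9 genes by sequence were examined next. Of 20 paralogs, 18 were tested, 13 had a log2 fold change below 0, and the median was −0.38. With edgeR 0 had an adjusted p under 0.05 (2 with DESeq2, 1 with limma-voom), and 2 were higher and 7 lower at an unadjusted p under 0.05. Myoz1, the skeletal relative of Myoz2, was at 37.7 ± 3.62 CPM in CTRL and 50.9 ± 5.34 in Isl1_hypo (log2 fold change 0.43, adjusted p 0.221), with no overlap between the groups, on the same side as Myoz2. Nrap, a nebulin relative of developing myofibrils, was at 24.1 ± 6.13 and 14.9 ± 0.609 CPM (−0.69, adjusted p 0.177), where Nebl stood at 0.21. The groups did not overlap for Nrap either, as for 7 of the 18 tested in all and 8.5% of all genes.

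Of 18 genes of the M-band and of thick filament assembly, 17 were tested, with 7 log2 fold changes above and 10 below 0 and a median of −0.13. With edgeR 0 had an adjusted p under 0.05 (1 with DESeq2, 2 with limma-voom), and 2 were higher and 2 lower at an unadjusted p under 0.05. Some genes stand in more than 1 of these lists. Ank1, whose product has forms in the sarcoplasmic reticulum of muscle and in the membrane skeleton of red cells, was at 6.32 ± 0.951 CPM in CTRL and 12.4 ± 0.762 in Isl1_hypo (log2 fold change 0.97, adjusted p 0.0577). All 8 erythroid markers were higher in Isl1_hypo at an unadjusted p under 0.05, 1 of them, Epb42, with an adjusted p under 0.05, and their sum was 1973 to 11569.6 CPM in CTRL and 11577 to 24479.6 in Isl1_hypo. The upper CTRL value is that of replicate 4, the library in which Ttn stood far above the others, and without it the highest CTRL sum was 4571 CPM. The part of these markers in the values of Ank1 and Ttn was not tested. Speg encodes a muscle protein kinase family member, and its kept transcript was 1401 bases long. Which form of the protein this transcript codes for was not determined. It was at 58.4 ± 4.15 and 44.2 ± 5.14 CPM (log2 fold change −0.40, adjusted p 0.236, edgeR), on the same side as Ttn without passing the threshold.

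Several of the 9 genes are also expressed in skeletal or smooth muscle, so markers of other cell types in the dissected tissue were measured. The skeletal muscle regulators Myod1, Myf5 and Myog had at most 1, 11 and 13 counts in any library. The sum of the 8 skeletal and pharyngeal genes, 3 of them tested, was 70.8 to 95.8 CPM in CTRL and 115 to 131 in Isl1_hypo, and the ranges did not overlap. Of 7 smooth muscle markers, 6 were below 0 with a median of −0.25, and their sums of 5207 to 7713 CPM in CTRL and 5231 to 7586 in Isl1_hypo overlapped. Mesenchyme markers (8 tested, sums of 1577 to 2549.9 and 1050.3 to 2905 CPM) and endothelial markers (8 tested, 733 to 864 and 612 to 791 CPM) overlapped as well. The highest mesenchyme sum in Isl1_hypo was that of replicate 1, and without it the other 3 libraries reached 1437 CPM, below every CTRL library. That library was picked after the values were seen. Of the 8 mesenchyme genes 3 were higher and 5 lower. Dcn, the 1 without overlap of the groups (8.5% of all genes), was higher, at 23.0 ± 13.6 and 85.5 ± 26.3 CPM (log2 fold change 1.89, adjusted p 0.0727, edgeR). All 4 tested epithelial markers were higher, and the sum of all 7 in the list, 3 of them removed by the filter on low counts, was 94.7 to 172 CPM in CTRL and 179 to 381 in Isl1_hypo. Tcf21, a factor of pharyngeal muscle and epicardial progenitors, was at 30.4 ± 15.8 and 59.0 ± 7.57 CPM (log2 fold change 0.95, adjusted p 0.282, edgeR). In these 5 lists edgeR called 0 genes, with 1 smooth muscle, 1 skeletal and pharyngeal, 4 mesenchyme, 2 endothelial and 4 epithelial genes at an unadjusted p under 0.05, and DESeq2 called 0, 1, 1, 1 and 2 genes in the same order and limma-voom 0 except for 1 mesenchyme gene. The part of these cell types in the values of the 9 genes was not tested.

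The 5 genes whose pattern over the 8 libraries was most like the mean log2 CPM of the 9 were Add3, Phip, Tmem151b, Mthfd2l and Atm, among 10734 genes with a mean of at least 5 CPM. Their Pearson correlations were 0.925, 0.922, 0.913, 0.903 and 0.879 and their Spearman correlations 0.857, 0.905, 0.905, 0.857 and 0.905. The mean of the 9 genes itself moved little, from 8.30 in Isl1_hypo replicate 1 to 8.62 in Isl1_hypo replicate 2 on the log2 scale, with CTRL at 8.41 to 8.54. The points share their libraries and depth, and the 5 genes are the top of a search over many, so the values are a description.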

How the data were processed

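RNA from the OFT/RV of 8 single E10.5 embryos (4 CTRL, 4 Isl1_hypo) was sequenced on the BGISEQ-500. The authors aligned reads with STAR to mm9 and counted exon reads of 31507 RefSeq transcripts with HOMER, both strands together. The deposited counts are whole numbers without normalization. RPKM values, which the authors made with edgeR from these counts, were not tested. Columns of the authors' DESeq2 comparison (mean normalized signal, log2 fold change and its error, the Wald score, p-values) were not used.

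The transcript with the highest mean count stood for each symbol. Genes were filtered with filterByExpr, scaled by TMM and tested with the quasi-likelihood test of edgeR 4.0.16 (R 4.3.3), with Benjamini-Hochberg adjustment over 13769 genes and a threshold of 0.05. An SE is the size of a log2 fold change divided by the square root of F. The biological coefficient of variation was 26.4%. Every listed transcript was tested in a second fit of 22790 transcripts, in which transcripts of the same gene share reads. Shares of transcripts used exact permutation tests (scipy 1.17.1). Scripts were tested on simulated data. Alternatives were DESeq2 1.42.0, limma-voom (limma 3.58.1) with sample weights, other scaling and filters, the longest transcript, length trends (loess span 0.5, or linear), the replicate block and leaving out libraries. Coordinates are from GENCODE vM1 on mm9. Same-numbered replicates did not deviate together (correlations of −0.0209 to 0.0219).

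Genes and lists were chosen with earlier results of these data known. All 9 genes were named, and from 3 lists of related genes those with an adjusted p under 0.05, or otherwise the 3 with the lowest p. Other lists are given as counts and sums, and genes named from them were chosen after their values were seen. Some genes that this rule names are not reported here.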

Additional observations from a re-analysis of the deposited data

Results flagged for a closer look

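An outlying library was looked for in 26 sets of 4 values and found in 1, at a rate of about 1 in 20 sets by chance. Ldb3 stood at 8.89 log2 CPM in CTRL replicate 1 and at 8.65 to 8.68 in the other CTRL libraries. That library also had the steepest rise of values with transcript length (slope 0.119), and the part of length in this value was not tested. Without it the log2 fold change of Ldb3 was −0.03, against −0.09 with it.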

How the results depend on the processing

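Over 20 alternatives the log2 fold change of Myoz2 ranged from 1.13 to 1.25, and its adjusted p stayed under 0.05 in 19 of them. The exception was the fit with the replicate number as a block, where it was 1.18 with an adjusted p of 0.0510. In that block fit edgeR called 0 genes of all tested (1582 at an unadjusted p under 0.05), 0 of the 9 and 0 of their transcripts, and since the numbers do not pair the embryos it also spends degrees of freedom. The count over all genes was 37 and became 319 with DESeq2 and 134 with limma-voom, and 4 to 48 when 1 library was left out (4 without CTRL replicate 3, 48 without Isl1_hypo replicate 3). The 20 higher and 17 lower calls became 31 and 9 without CTRL replicate 4, and 22 and 12 with the loess length trend removed. DESeq2 called 2 of the 9 genes, the second being Ttn (−0.90, adjusted p 0.0055). With loess fitted without Ttn, 2 of the 9 had an unadjusted p under 0.05 in place of 4. Ttn turned to 0.26 with the loess trend, which differed by −1.13 between the groups at a length where no other gene lies. It ranged from −1.05 to −0.64 when 1 library was left out. Tcap turned from 0.02 to −0.017 scaled to cardiomyocyte markers, −0.016 with the replicate block, −0.15 with limma-voom, −0.052 with either loess trend, −0.040 with the linear trend and −0.12 without both libraries at the ends of the length trend, and it ranged from −0.16 to 0.14 when 1 library was left out. Ldb3 turned from −0.09 to 0.0058 with either loess trend, 0.0052 with the linear trend and 0.012 without both end libraries. The linear trend, the loess without Ttn and the fit without both end libraries were chosen after seeing the data. Apart from what is named, the cause of these shifts was not tested. Between 4 and 6 of the 9 genes were lower under every alternative, with a median of −0.18 to 0.01. With 4 embryos a group, differences of less than about 1 SE, as for Actn2, Ldb3 and Tcap, could not be resolved. Larger ones did not always pass with edgeR either, as for Ttn (−0.90, SE 0.231, adjusted p 0.173).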
